A study of Mus musculus with 6 samples.

Results

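Among neoplastic cells sorted from mouse lung tumours, 131 of 16017 cells in the deposited matrix met a rule on the detection of endothelial genes. A cell was taken as an endothelial-marker cell when it had at least 500 genes, at most 20% of its UMIs (unique molecular identifiers, 1 per captured RNA molecule) from mitochondrial genes, and at least 1 UMI of at least 3 of the 6 endothelial genes Pecam1, Cdh5, Cldn5, Tie1, Emcn and Plvap. Both quality limits were passed by 12183 cells, so that the endothelial-marker cells made up 1.08% of them (95% Clopper-Pearson interval, 0.900 to 1.27). A further 2 cells met the marker rule over the mitochondrial limit and 4 under the gene minimum, and were left out. The other 12052 passing cells are the comparison throughout. The cells were thus chosen by the measured detection of these 6 genes, whose levels are given as a description.

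The single-cell libraries (10x Genomics 3-prime chemistry) came from 6 tumour-bearing mice, with about 8000 cells targeted per sample. All 6 carried a Cre-activated oncogenic allele, a Cre-activated tdTomato reporter and 2 copies of Lkb1XTR, an allele of the tumour suppressor gene Lkb1 (official symbol Stk11) that Cre switches off through a gene trap encoding GFP and that FLPo recombinase can switch on again. Tumours were started with a lentivirus carrying Cre, and their growth is given as 20 weeks and treatment as 2 weeks. The 3 Restored mice carried tamoxifen-inducible FLPo-ERT2 and received tamoxifen (4 mg), whereas the 3 NonRestored mice were 1 without FLPo-ERT2 given tamoxifen, 1 without FLPo-ERT2 given vehicle and 1 with FLPo-ERT2 given vehicle. Live, tdTomato-positive cells were collected and cells stained for CD31, CD45, F4/80 or Ter119 were gated out. The matrix joined all libraries and no file analysed here tied a cell to its mouse, so the cells were treated as 1 sample, no comparison between Restored and NonRestored mice was made, and no test was run. Intervals below cover counting error only, and cells that share a mouse are not independent.

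Endothelial cells line blood and lymphatic vessels. They are held together by VE-cadherin (Cdh5) and claudin-5 (Cldn5), respond to vascular endothelial growth factor (VEGF) and angiopoietins through receptor tyrosine kinases, and carry on their surface CD31 (Pecam1), the antigen most used to stain and sort them. In the lung, general capillary cells and aerocytes make up the alveolar capillaries, while arteries, veins and lymphatics carry further sets of genes.

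Transcription factors of the ETS family share a GGAA core and drive much endothelial expression. The 250 bases before the RefSeq start of 2 of the genes that chose the cells are shown because these genes were detected in the same cells, with the hexamers AGGAAG and CGGAAG in capitals on either strand (in the opposite direction they read CTTCCT and CTTCCG). The promoter of Emcn (chr3:137340828-137341077, plus strand) held 2 matches and that of Cldn5 (chr16:18776597-18776846, plus strand) held 0, in RefSeq sequence of build GRCm38.p6 read 5′ to 3′.
Emcn: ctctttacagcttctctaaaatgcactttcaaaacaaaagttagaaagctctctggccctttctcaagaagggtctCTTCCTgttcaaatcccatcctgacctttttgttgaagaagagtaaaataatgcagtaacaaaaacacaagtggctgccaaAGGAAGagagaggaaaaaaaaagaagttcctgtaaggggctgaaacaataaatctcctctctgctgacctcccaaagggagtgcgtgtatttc
Cldn5: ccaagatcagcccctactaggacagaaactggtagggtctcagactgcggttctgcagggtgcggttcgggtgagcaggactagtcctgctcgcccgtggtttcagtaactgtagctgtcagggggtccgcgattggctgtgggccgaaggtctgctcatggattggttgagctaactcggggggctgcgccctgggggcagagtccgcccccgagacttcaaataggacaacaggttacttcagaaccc
Of 32851 mouse promoters of this length, 39.2% held either hexamer. Among the further pan-endothelial genes examined below, 9 of the 15 with a promoter entry held one. RefSeq and GENCODE starts can differ, and the Tie1 window, which lay mostly inside the gene by its GENCODE position, is not shown. A match is a string of letters and not a bound site.

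The endothelial-marker cells were shallower than the cells around them. They held 1976502 UMIs in all, with a median of 11525 UMIs per cell (778 to 111308), 3597 genes and 3.39% mitochondrial UMIs, against 19422 UMIs, 4175.5 genes and 3.70% in the other cells. Levels are in CPM: the UMIs that a gene received in a set of cells, scaled to a total of 1000000 UMIs for that set. Shares of cells with a UMI are given after every cell was thinned to 3000 UMIs, which left 110 endothelial-marker cells (median 12875.5 UMIs before thinning) and 11501 other cells (median 20157) and left out 21 and 551.

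Few cells lay near the limit of 3 rule genes. None was detected in 11775 cells and 1 in 266, 11 cells had 2, and the 131 chosen cells had 3 (11 cells), 4 (22), 5 (26) or 6 (72). The 11 cells just inside the limit had a median of 2346 UMIs, and the 11 just outside it had a median of 2347. A further 22 endothelial genes that the rule did not use gave a second view of the same cells: their median number detected was 20 in cells with all 6 rule genes, 9 (6 to 12) just inside the limit, 5 (0 to 14) just outside it and 1 in cells with none. Summed over these 22 genes, an endothelial-marker cell held 369 to 28295 UMIs per 1000000 (median 12721), against 0 to 19201 (median 68.3) in the other cells, so the ranges overlapped.

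**Figure D1:**
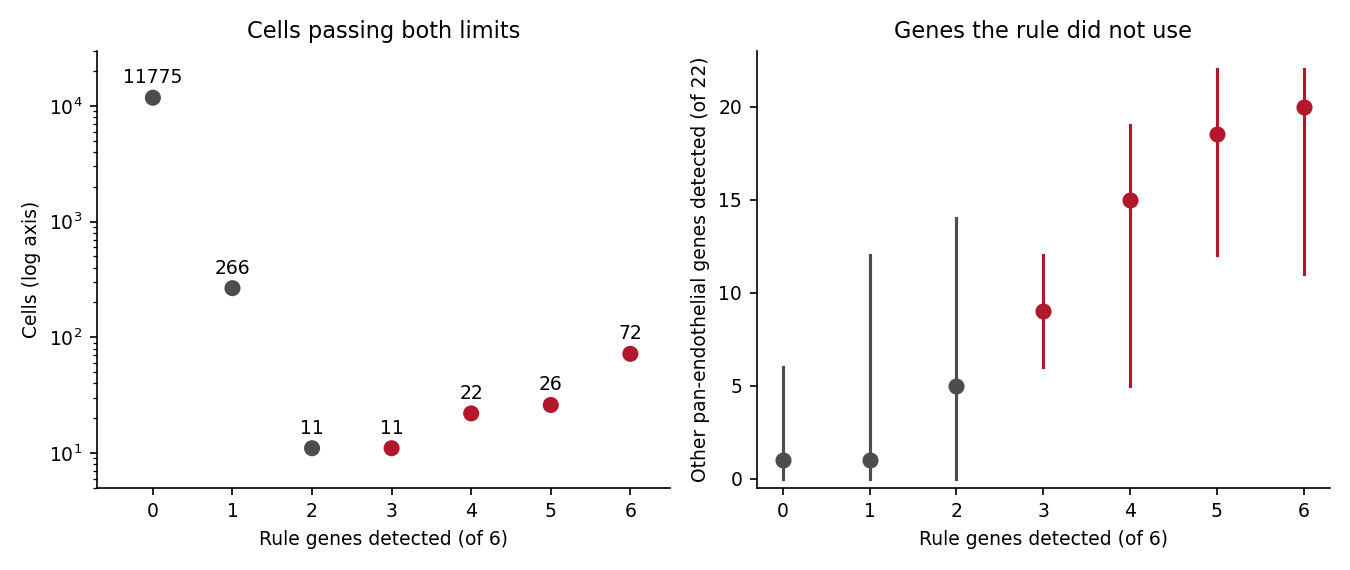
Number of passing cells (left, log axis) and number of 22 further pan-endothelial genes detected per cell (right, median as a point and lowest to highest as a line) by the number of rule genes detected; the chosen cells are red. Only 11 cells had exactly 2 rule genes and 11 exactly 3, against 72 with all 6, and the median of further genes went from 1 with no rule gene to 20 with 6.

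Pecam1, which encodes the CD31 antigen that the sort gated out, was detected in 127 of the 131 cells, at 861 CPM against 0.686 CPM in the other cells. Per cell its UMIs ran from 0 through a median of 10 to 74. Cdh5 was detected in 117 cells at 658 against 0.0509 CPM, Plvap, which encodes the protein of fenestral and caveolar diaphragms, in 109 at 841 against 0.388 CPM, and Cldn5 in 103 at 829 against 0.157 CPM. The angiopoietin pathway receptor Tie1 was detected in 116 cells and the sialomucin gene Emcn in 111.

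Further endothelial genes that the rule did not use were detected in these cells. All 22 further pan-endothelial genes reached 10 CPM in either set, and 22 of 22 were at least 2-fold higher in the endothelial-marker cells, with log2 ratios from 3.30 to 13.04 and a median of 10.98. Of the 9405 genes that reached 10 CPM in either set, 23.3% were at least 2-fold higher and 12.3% at least 2-fold lower in the endothelial-marker cells, and the median gene stood at a log2 ratio of 0.31. Set against the median gene, 1693 genes were past the fold upward and 1480 downward, in place of 2191 and 1156. A low gene that reached 10 CPM only through the endothelial-marker cells had to be higher there, so the counts of listed genes, that of the 22 included, describe the lists and test nothing. The lists share some genes.

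Ramp2 encodes the partner that turns the calcitonin receptor-like receptor into an adrenomedullin receptor (chr11:101246028-101259546, plus strand, GRCm38). It was at 1469 CPM against 0.725 CPM and was detected in 128 of the 131 cells, with 0 to 114 UMIs and a median of 17 per cell. After thinning it was in 90.9% of the endothelial-marker cells and 0.217% of the others. The receptor gene itself, Calcrl (chr2:84330626-84425411, minus strand), was at 904 against 0.317 CPM and in 118 cells. Ptprb, the gene of the vascular endothelial phosphatase that restrains Tie2 and VE-cadherin signalling, was at 732 against 0.161 CPM. Gpihbp1, whose product anchors lipoprotein lipase to the capillary wall (chr15:75596628-75599481, plus strand), was at 684 against 0.098 CPM and in 102 cells. The smallest difference of the 22 was that of the junctional adhesion gene Esam, at 760.4 against 77.2 CPM, a ratio of 9.85-fold (95% interval, 9.34 to 10.4).

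**Figure D2:**
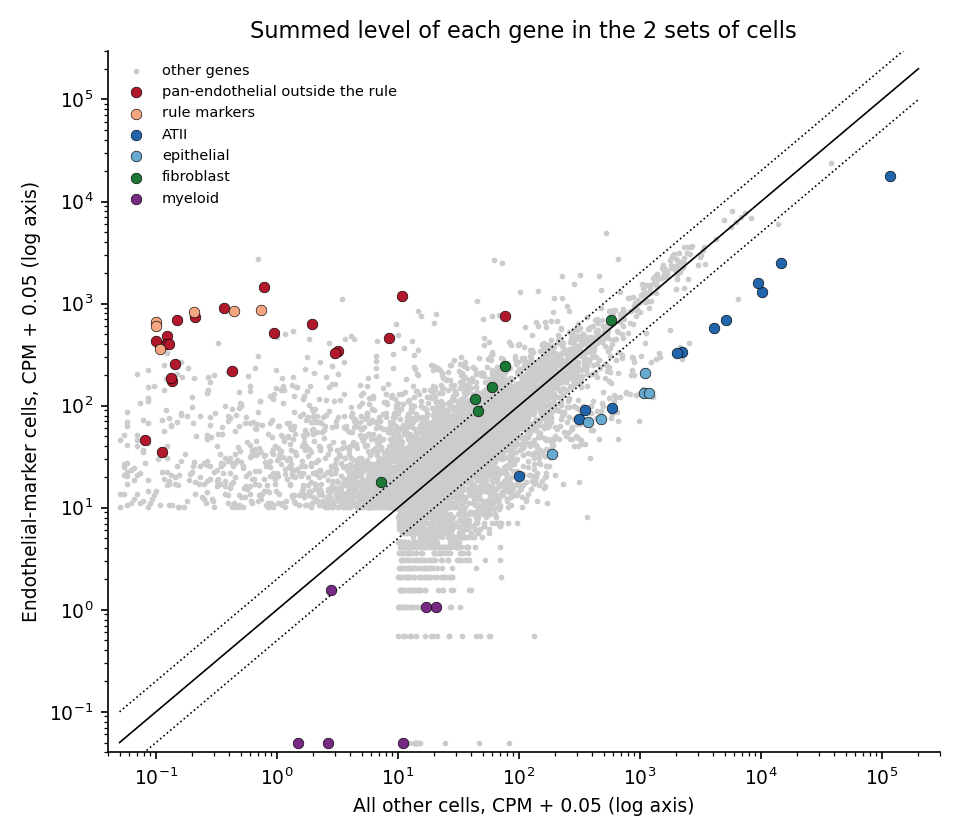
Level of each of the 9405 tested genes and of the genes of 6 cell type lists in all other cells (x axis) and endothelial-marker cells (y axis), in CPM + 0.05 on log axes; the solid line marks equal levels and the dotted lines a 2-fold difference. Pan-endothelial genes (red) lie above the line by log2 ratios of 3.30 to 13.04, ATII and epithelial genes (blue) lie 3.89- to 8.89-fold below it, and 4 of the 6 fibroblast genes (green) lie just past the upper dotted line.

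RNA of other cell types was present in many of the cells, and 16 held at least 3 genes of such a list. Of the 131 cells 53 had no UMI of the 6 epithelial, 6 fibroblast and 6 myeloid genes. At least 3 of 6 epithelial genes (Epcam, Cdh1, Krt8, Krt18, Nkx2-1 and Cldn18) were detected in 13 of the 131 cells and at least 3 of 6 fibroblast genes in 5, with 2 cells in both counts. No cell held 3 of 6 myeloid genes, and 0 of 131 cells allows a share of up to 2.29% by the limit of 3 counts, which concerns cells in which 3 were detected and not cells that express them. The 16 cells with at least 3 epithelial or at least 3 fibroblast genes are called mixed droplets. Whether they were doublets was not tested. They had a median of 31059 UMIs against 9925 in the other 115 cells. Epithelial content was split: 12 cells had all 6 epithelial genes, 1 had 3, 13 had 2, 74 had none and the rest had 1. The 16 cells were kept, and values without them are given beside results that turned on them, together with each list count that they changed. Leaving them out lowers the 6 epithelial and 6 fibroblast genes by construction, since detection of these genes defined the mixed droplets.

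RNA of the tumour epithelium was lower in the endothelial-marker cells than in the other cells. The lists held 12 genes of alveolar type II (ATII) cells, the surfactant-producing cells that these tumours resemble, and the 6 epithelial genes. All 12 ATII genes and all 6 epithelial genes were at least 2-fold lower. The 12 ATII genes, which did not define the mixed droplets, were in the endothelial-marker cells at 12.8 to 25.7% of the other cells' level (median 16.2%), and without the 16 mixed droplets at 0.549 to 12.4% (median 0.931%). In that smaller set 11 of the 12 were under 3%, the exception being Abca3, which encodes a lipid transporter of lamellar bodies, at 12.4%. The 6 epithelial genes were at 11.2 to 19.1% with every cell kept. Surfactant protein C (Sftpc) RNA was detected in all 131 cells, where it took from 0.0176 through a median of 0.122 to 18.8% of the UMIs, against a median of 11.5% in the other cells. Fibroblast-marker cells (at least 3 of the 6 fibroblast genes, 250 cells) and myeloid-marker cells (at least 3 of the 6 myeloid genes, 83 cells) of the same matrix had medians of 0.0997% and 0.0770%, so the median of the endothelial-marker cells was near that of cells of other lineages.

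**Figure D3:**
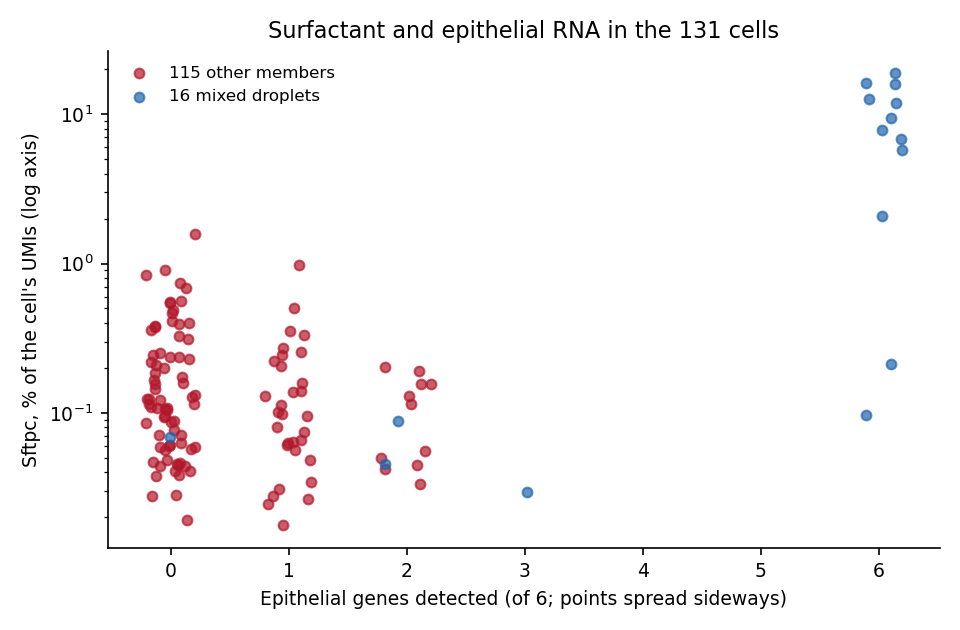
Share of each endothelial-marker cell's UMIs that came from Sftpc (y axis, log) by the number of 6 epithelial genes detected in it (x axis), with the 16 mixed droplets in blue. The 115 other cells (red) had, by definition, at most 2 epithelial genes, and at most 1.59% Sftpc, and 12 mixed droplets had all 6 epithelial genes.

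The tdTomato reporter, the basis of the positive sort gate, was low but not absent. It was at 1443 against 7113 CPM in the endothelial-marker and the other cells, and at 455 CPM without the mixed droplets. Per cell the median was 469 CPM in the endothelial-marker cells and 426 CPM without the mixed droplets, against 6088 CPM in the other cells, 154 CPM in fibroblast-marker cells and 2132 CPM in myeloid-marker cells. No tdTomato UMI was seen in 10 of the 131 cells. Without the mixed droplets tdTomato stood at 6.4% of the other cells' level. GFP, read from the trapped Lkb1 allele, gave 10 UMIs in 4 cells (5.06 against 27.2 CPM), and 0.722 CPM remained without the mixed droplets. Stk11, the gene of LKB1, was at 18.7 against 21.9 CPM, a ratio of 0.856-fold (95% interval, 0.602 to 1.18).

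Cells of the remaining lineages left little or no RNA among the 131. Of the 6 myeloid genes, Ptprc, Csf1r and Laptm5 were at 0 UMIs and Tyrobp, Fcer1g and Coro1a at 2, 2 and 3 UMIs. The 5 erythroid and 4 mesothelial genes were at 0 UMIs, which allows a level of up to 1.52 CPM each (3 UMIs). Among the 7 lymphoid genes 6 were at 0 and Cd79b had 6 UMIs, all in mixed droplets, and the 4 ciliated cell genes had 3 UMIs in all. Of 5 platelet genes Itga2b had 25 UMIs in 20 cells (12.6 against 1.48 CPM) and the other 4 had 0 to 3 UMIs.

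Several fibroblast and mural cell genes had most of their UMIs in 1 cell. Of the 6 fibroblast genes 4 were at least 2-fold higher in the endothelial-marker cells. Without the mixed droplets, which these genes helped to define, 0 were higher and 5 of 5 tested were lower, a count that the choice of droplets in part fixes. Over all 9528 genes tested without those droplets, 26.4% were at least 2-fold higher and 14.7% at least 2-fold lower. Of the 5 tested pericyte and smooth muscle genes 3 were higher and 1 lower, and without the mixed droplets 0 of 3 tested were higher and 3 were lower. Dcn, the gene of the matrix proteoglycan decorin, had 480 UMIs in 5 cells and 0 without the mixed droplets, and 1 cell held 63.1% of its UMIs. Rgs5, a pericyte gene, was at 48.6 against 2.75 CPM, with 89.6% of its UMIs in 1 cell and 4.33 CPM without the mixed droplets. Sparc and Sparcl1, matrix protein genes that the list of vessel basement membrane holds, were by contrast detected in 129 and 116 of the 131 cells.

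**Figure D4:**
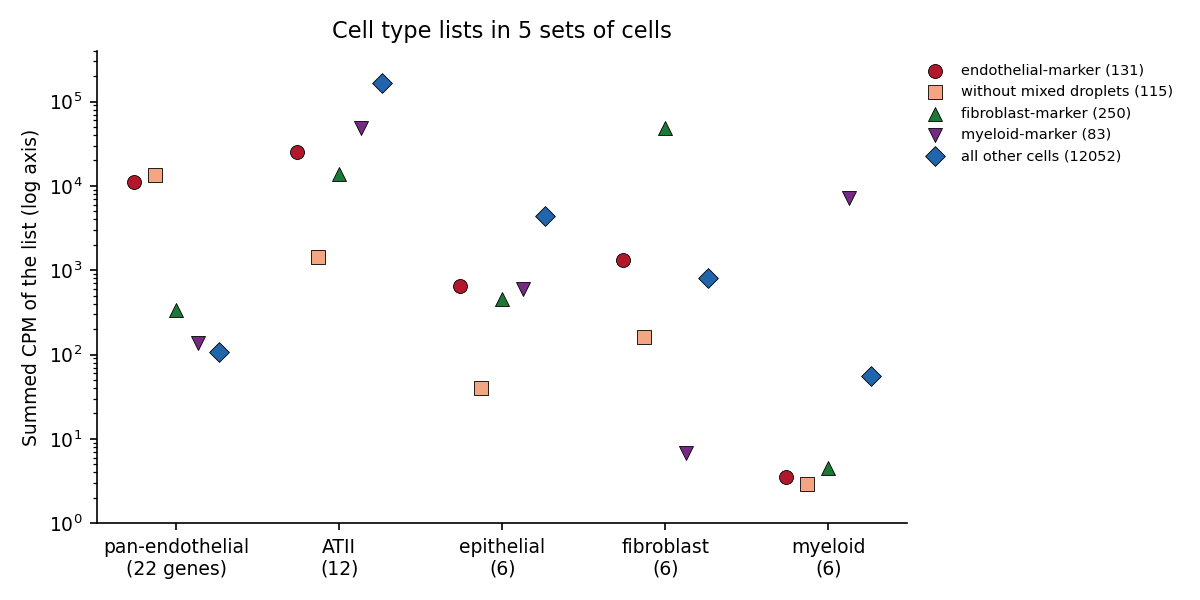
Summed CPM (log axis) of 5 cell type lists in the endothelial-marker cells, in those without the 16 mixed droplets, and in fibroblast-marker, myeloid-marker and all other cells; numbers of cells are in the legend. The pan-endothelial list summed to 11008 CPM in the endothelial-marker cells and 108 CPM in all other cells, and the ATII list fell from 25305 to 1415 CPM when the mixed droplets were left out.

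Receptors for VEGF were among the transcripts of these cells. Of the 5 VEGF receptor and co-receptor genes, 5 were at least 2-fold higher. Kdr, the gene of the main signalling receptor VEGFR2, was at 255 against 0.094 CPM and in 94 cells. Flt1, which encodes the VEGF-sequestering receptor VEGFR1, was at 626 against 1.88 CPM and in 119 cells. Flt4, the VEGF-C receptor gene, was at 32.9 against 0.0509 CPM. The co-receptor gene Nrp1 differed less, at 485 against 177 CPM, and was at 381 CPM in fibroblast-marker cells.

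The ligands of these receptors were divided. Of the 3 VEGF genes that reached 10 CPM, 1 was at least 2-fold higher: Vegfc, the ligand of lymphatic and venous sprouting, at 183 against 0.776 CPM, in 61 cells. Vegfa, the main angiogenic ligand, was at 107 against 194 CPM, a ratio of 0.551-fold (95% interval, 0.479 to 0.631), and at 87.4 CPM and at least 2-fold lower without the mixed droplets, and Vegfb at 38.5 against 52.9 CPM. The other cells held the higher level of Vegfa and the endothelial-marker cells the higher level of Vegfc. Vegfd had 2 UMIs.

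In the angiopoietin pathway, Tek, the gene of the receptor Tie2, was at 218 against 0.372 CPM and in 99 cells. Its ligand genes were little detected: Angpt2, which destabilizes vessels, had 22 UMIs in 12 cells (11.1 against 1.3 CPM) and Angpt1, the stabilizing ligand, had 8 UMIs. All 4 of the tested genes of this list, among them Ptprb and Tie1, were at least 2-fold higher.

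The adrenomedullin list was divided between receptor partners. Ramp2 and Ramp3 were higher, Ramp3 at 71.8 against 0.0235 CPM and in 54 cells, whereas Ramp1, the partner that gives the receptor its affinity for calcitonin gene-related peptide, was 4.9-fold lower (16.2 against 79.3 CPM), and at 0.722 CPM without the mixed droplets. The adrenomedullin gene Adm had 40 UMIs in 18 cells. Of the 5 genes 4 were at least 2-fold higher and 1 lower.

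Of 10 Notch pathway genes 8 reached 10 CPM in either set, and 6 of these were at least 2-fold higher. The receptors Notch1 (139 against 24.1 CPM) and Notch4 (43.5 against 1.53 CPM) and the ligands Dll4 (90.6 against 1.53 CPM) and Dll1 (96.6 against 1.14 CPM) were among them. The ligand gene Jag1 and the target Hes1 were within 2-fold, at 1.43- and 1.56-fold. The target Hey1 was at 87 against 0.419 CPM, and Hey2 had 0 UMIs.

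Among 12 genes of BMP and TGF-beta signalling 9 were at least 2-fold higher and 1 lower. The endothelial type I receptor gene Acvrl1 was at 408 against 1.02 CPM and its co-receptor gene Eng at 339 against 3.14 CPM. The immediate targets Id1 (591 against 108 CPM) and Id3 (746 against 94.9 CPM) and the inhibitory Smad gene Smad7 (239.8 against 69.7 CPM) were 5.49-, 7.86- and 3.44-fold higher. The gene of the ligand BMP4 was the lower one, at 48.1 against 205 CPM and at 19.5 CPM without the mixed droplets. Id2 and the type II TGF-beta receptor gene Tgfbr2 were within 2-fold. The list was not particular to these cells: it summed to 2959 CPM in them and 2875 CPM in fibroblast-marker cells.

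Transcription factor genes of the endothelium were detected as a group. Of 18 listed 17 reached the limit of 10 CPM and 17 were at least 2-fold higher, with a median log2 ratio of 6.82, and 16 without the mixed droplets. The SoxF genes Sox17 (404 against 0.0705 CPM), Sox18 (387 against 0.0588 CPM) and Sox7 (103 against 0.0118 CPM) were in 104, 103 and 80 cells. The ETS family genes Ets1 (456 against 12.6 CPM), Fli1 (101 against 0.431 CPM) and Erg (35.4 against 0.0627 CPM) differed as well, though Erg was detected in only 45 of the 131 cells. Foxf1, a factor gene of lung capillary endothelium, was at 328 against 1.56 CPM, and Epas1, which encodes the hypoxia-inducible factor HIF-2 alpha, at 587 against 124 CPM. The exception in the smaller set was Tbx2, at 6 CPM in the other cells and 11.6 CPM without the mixed droplets.

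Genes that respond to blood flow or act on vessel tone were higher too. Of 9 listed 8 were tested and 8 were at least 2-fold higher. Klf2, a zinc-finger factor induced by shear stress, was at 3144 against 328 CPM, and its relative Klf4 at 1182 against 179 CPM. Per cell Klf2 ran from 0 through a median of 24 to 385 UMIs. Ace, the gene of angiotensin-converting enzyme, was at 462 against 5.67 CPM and in 106 cells, and Nos3, which encodes endothelial nitric oxide synthase, at 58.7 against 0.592 CPM and in 63 cells. Edn1, the gene of the vasoconstrictor endothelin-1, was at 59.7 against 10.1 CPM. Klf2 and Klf4 were also well detected in the other cells, in 41.4% and 31.1% of them after thinning.

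Of 9 junction genes 7 were at least 2-fold higher, and 8 without the mixed droplets. Besides Cdh5 and Cldn5, Jam2 was at 479.6 against 1.2 CPM and Esam as given above. F11r, Tjp1 and Ocln, which encode junction proteins of both epithelium and endothelium, stood at 1.94-, 2.62- and 0.692-fold.

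Of 6 tested leukocyte adhesion genes 5 were at least 2-fold higher, among them Cd34 (631 against 3.59 CPM), Podxl (349 against 1.49 CPM), Icam2 (402 against 0.0784 CPM) and Selp (141 against 0.0157 CPM), which encodes P-selectin. Vcam1 had 53 UMIs in 15 cells and Sele, the E-selectin gene, 2 UMIs. Icam1 was at 404 against 498 CPM, a ratio of 0.811-fold (95% interval, 0.756 to 0.87).

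Of 7 tested genes of haemostasis 5 were at least 2-fold higher and 0 lower, and without the mixed droplets 6 were higher and 1 lower. With every cell kept the lowest log2 ratio of the 7 was 0.52, so the 1 lower gene changed direction. Thbd, the gene of the anticoagulant thrombomodulin, was at 588 against 1.85 CPM and in 114 cells, and Vwf, the von Willebrand factor gene, at 462 against 0.439 CPM and in 86 cells. The clotting inhibitor genes Tfpi (89.6 against 1.7 CPM) and Pros1 (119 against 21.7 CPM) were also higher. The list summed to 1519 CPM in the endothelial-marker cells and 1333 CPM in fibroblast-marker cells.

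Genes of caveolae and their diaphragms were higher in 7 of 7 cases, from 2.02-fold for Cavin3 to 2169-fold for the rule gene Plvap. Cav1, the main caveolar coat gene, was at 522 against 9.16 CPM and in 112 cells. Basement membrane genes were higher in 9 of 9 cases, with a median log2 ratio of 2.83. The type IV collagen genes Col4a1 (1658 against 234 CPM) and Col4a2 (819 against 136 CPM), the collagen-binding glycoprotein gene Sparc (3908 against 638 CPM) and the laminin gene Lama4 (54.6 against 1.33 CPM) were among them. This group was not limited to endothelial-marker cells: Sparc and Sparcl1 were at 5396 and 2795 CPM in the fibroblast-marker cells, above the 3908 and 1715 CPM of the endothelial-marker cells.

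Of 8 lipid handling genes 6 were at least 2-fold higher and 1 lower. Cd36, the fatty acid translocase gene, was at 1084 against 413 CPM, Scarb1, the high-density lipoprotein receptor gene, at 332 against 6.84 CPM, and the fatty acid carrier gene Fabp4 at 382 against 1.33 CPM in 33 cells only. Fabp5 was at 392 against 403 CPM. The list summed to 2958 CPM in the endothelial-marker cells and 2439 CPM in myeloid-marker cells.

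The vessel type of the cells was described by the detection of 6 lists of marker genes, each a range and not a type. At least 2 of 6 general capillary genes were detected in 106 of the 131 cells (80.9%, 95% Clopper-Pearson interval 73.1 to 87.3), and at least 2 of 7 aerocyte genes in 41 (31.3%, 23.5 to 40.0). After thinning the numbers were 64 of 110 (58.2%, 48.4 to 67.5) and 10 of 110 (9.09%, 4.45 to 16.1). Depth moved with these counts: cells with 2 aerocyte genes had a median of 20363 UMIs and those without 8180.5. At least 2 of 7 arterial genes were found in 96 cells, 2 of 7 venous genes in 73, 2 of 7 lymphatic genes in 28 and 2 of 8 tip cell genes in 61, and in 40, 44, 7 and 27 of the 110 thinned cells. Among the 11501 other thinned cells the same criterion gave 0.730% for general capillary, 0.0261% for aerocyte, 0.626% for arterial, and 0.730% for venous genes, with 23 cells for tip cell and 0 for lymphatic genes. Among the 220 thinned fibroblast-marker cells 12.3% met it for arterial and 12.3% for venous genes, 5.45% for tip cell genes and 0.909% for general capillary genes. A cell could be counted in several lists.

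Among the general capillary genes Gpihbp1 was detected in 102 cells, the apelin receptor gene Aplnr in 89 (280.3 against 0.0823 CPM), the semaphorin gene Sema3c in 72 (195 against 80.4 CPM) and the stem cell factor receptor gene Kit in 64 (97.6 against 0.0313 CPM). Glp1r had 3 UMIs. Of the 6 genes 5 were tested and 5 were at least 2-fold higher.

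Aerocyte genes were mixed with general capillary genes. Ednrb, an endothelin receptor gene, was detected in 53 cells (111 against 0.0118 CPM) and Car4, a carbonic anhydrase gene, in 36 (123 against 6.78 CPM). Both were detected in 15 cells, and all 15 also had Gpihbp1, which 102 of the 131 cells had. Apln, the apelin gene, had 18 UMIs in 12 cells, Tbx2 42 in 18 and Fibin 0. Car4 was not particular to the endothelial-marker cells: it was at 888 CPM in the myeloid-marker cells, where 72.7% of thinned cells had a UMI, and at 0.0482 CPM in the other cells left after the fibroblast-marker and myeloid-marker cells were set aside. Cells with and without Ednrb held Car4 at 116 against 132 CPM and Gpihbp1 at 729.9 against 625 CPM, whereas 2 further genes of the list went in opposite directions. Tbx2 was at 32.4 against 6.94 CPM in them and Prx, the periaxin gene, at 5.39 against 42.8 CPM. Without the mixed droplets Tbx2 was at 11.6 CPM and Prx at 26 CPM over all cells, against 21.2 and 21.8 CPM with them. The cells with Ednrb had a median of 16035 UMIs against 7793 without it and included 9 mixed droplets, and after thinning Tbx2 was in 4 of 51 and 1 of 59 cells and Prx in 1 and 6 of them. Of the 7 genes 4 were tested and 4 were at least 2-fold higher, and 4 of 5 without the mixed droplets.

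The venous genes Vwf, Selp and Nr2f2 were higher in cells in which Ackr1, the atypical chemokine receptor gene of venules (chr1:173331886-173333750, minus strand), was detected. Ackr1 had a UMI in 19 cells and was at 133 CPM over all 131, with 0 to 84 UMIs per cell, and 31.9% of its UMIs were in 1 cell. The split of the cells by Ackr1, Ednrb and Gja5 was chosen after the values were seen and is a description. All 19 had Vwf, 15 had Selp and 8 had Gpihbp1, against 67, 22 and 94 of the 112 cells without Ackr1. Vwf was at 1329.6 against 267 CPM in cells with and without Ackr1, Selp at 534 against 52.1 CPM, and the venous factor gene Nr2f2 at 328 against 84.9 CPM. Ephb4 of the same venous list differed little, at 132 against 113 CPM, a ratio of 1.16-fold (95% interval, 0.829 to 1.61). Lyve1, a hyaluronan receptor gene used as a lymphatic marker, was higher with Ackr1 as well, at 652 against 183 CPM. Flt4 of the same lymphatic list went the other way, at 8.26 against 38.4 CPM. Genes lower in the cells with Ackr1 were Gpihbp1 (234 against 785 CPM), Car4 (16.5 against 147 CPM) and the gap junction gene Gja4 (19.3 against 247 CPM). Aplnr, a general capillary gene like Gpihbp1, was higher in them, at 424 against 248 CPM. The tip cell genes Esm1 and Cxcr4 had 0 UMIs in the 19 cells and 67 and 73 in the other 112. The cells with Ackr1 were deeper, with a median of 17301 UMIs against 10526, and 13 of the 19 thinned cells still had an Ackr1 UMI. At the thinned depth 18 of the 19 had Vwf and 4 had Gpihbp1, against 43 and 61 of the 91 cells without Ackr1.

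The arterial connexin gene Gja5 was detected in 16 cells, none of which had Ackr1. All 16 had Gpihbp1 and Vwf and 15 had Gja4. In cells with and without Gja5, Gja4 was at 429 against 167 CPM, Hey1 at 201 against 67.6 CPM, the ephrin gene Efnb2 at 349 against 119 CPM and the chemokine receptor gene Cxcr4 at 114 against 23.7 CPM, 4.81-fold (95% interval, 2.94 to 7.83). Nr2f2 was at 10.4 against 149.9 CPM and Selp at 34.6 against 159 CPM, while the venous gene Vwf was at 515 against 453 CPM. Of the tip cell list, to which Cxcr4 belongs, Nid2 went the other way, at 10.4 against 46.2 CPM. General capillary genes differed among themselves, with Gpihbp1 at 951 against 638 CPM and Aplnr at 118 against 308 CPM. One cell held 35.2% of the Gja5 UMIs. The arterial gene Dkk2 was at 27.7 against 106 CPM in cells with and without Gja5 and at 267 against 55.8 CPM in cells with and without Ackr1. The elastic fibre gene Fbln5 was higher in both, at 166 against 104 CPM with and without Gja5 and 228 against 87.4 CPM with and without Ackr1. The median depth was 16116 UMIs with Gja5 and 11073 without it, and 3 of the 16 were mixed droplets. In the 15 and 95 thinned cells with and without Gja5, Gja4 was detected in 8 against 23, Hey1 in 5 against 24, Efnb2 in 8 against 33, Cxcr4 in 5 against 7, Nr2f2 in 0 against 23, Selp in 2 against 16, Vwf in 14 against 47 and Gpihbp1 in 10 against 55. Over the arterial list 6 of 6 tested genes, and over the venous list 7 of 7, were at least 2-fold higher than in the other cells of the matrix.

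**Figure D5:**
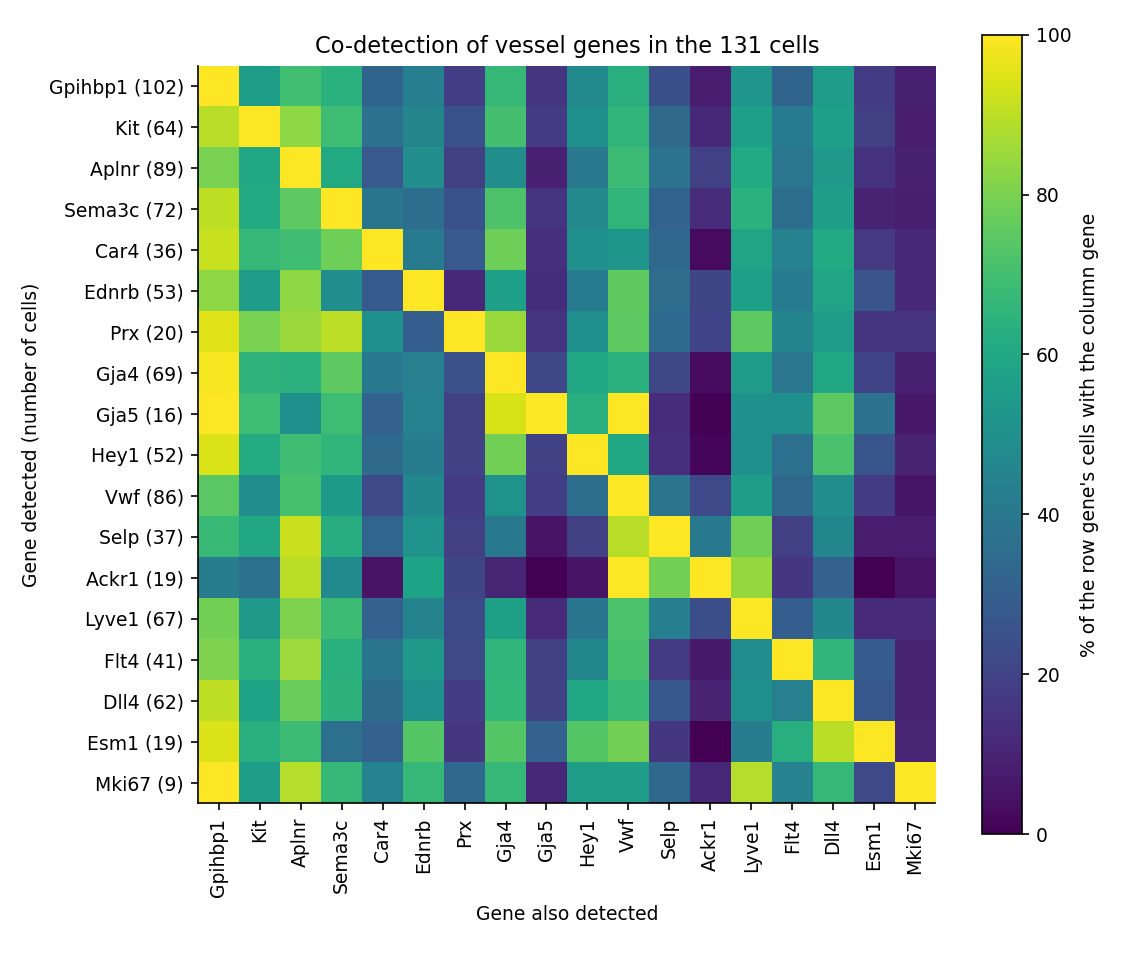
Share of the cells with the row gene (number of cells in brackets) in which the column gene was also detected, over the 131 endothelial-marker cells and without thinning. The 19 cells with Ackr1 had Vwf in every case and Gja5 in none, and the 16 cells with Gja5 had Gpihbp1 and Vwf in every case.

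Lymphatic markers were detected in part. Of the list 3 genes were tested and 3 were at least 2-fold higher. Lyve1 was detected in 67 cells (269 against 0.0862 CPM), but Prox1, the master factor gene of lymphatic identity, had 20 UMIs in 13 cells, Mmrn1 had 1 UMI, and Reln and Ccl21a had 0. Prox1, Flt4 and Lyve1 were detected together in 3 cells, and Prox1 and Lyve1 in 9.

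Of the tip cell genes 7 of 7 tested were at least 2-fold higher. Esm1, the endocan gene that marks sprouting vessels, was at 33.9 against 0.121 CPM in 19 cells, the guidance receptor gene Unc5b at 48.6 against 2.54 CPM, the basement membrane gene Nid2 at 41 against 0.153 CPM, and the activin subunit gene Inhbb at 97.6 against 33.5 CPM.

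Cycling cells were few. At least 3 of 10 proliferation genes were detected in 8 of the 131 cells (6.11%, 2.67 to 11.7), of which 2 were mixed droplets, against 2.40% of the other cells (2.13 to 2.69). After thinning the shares were 4.55% (1.49 to 10.3) of 110 cells and 1.17% (0.977 to 1.38) of 11501. All 10 genes were at least 2-fold higher with every cell, and 5 of 8 tested were without the mixed droplets. Top2a was at 42.5 against 11.8 CPM and at 43.3 CPM without them, whereas Ube2c went from 57.7 to 17.3 CPM against 19.3 CPM in the other cells, and 1 cell held 78.1% of its UMIs. Mki67, the gene of the Ki-67 antigen, was detected in 9 cells, all 9 of them with Gpihbp1. These 9 cells had a median of 29045 UMIs against 10976 in the rest, and 3 were mixed droplets.

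Outside all lists, the 10 genes with the largest ratios among those at 50 CPM or more and in at least 20% of thinned cells were Gpr182, Ldb2, Ccdc85a, Ccm2l, Fam167b, Grrp1, Gimap5, Adgrl4, Grp and Ctla2a. Ctla2a was detected in 128 of the 131 cells at 2719 against 0.643 CPM, with 93.6% of thinned cells against 0.104%. Adgrl4, an adhesion receptor gene of sprouting endothelium, was at 329.9 against 0.0745 CPM and in 110 cells, and Ldb2, which encodes a cofactor of LIM-domain proteins, at 203 against 0.0196 CPM and in 92 cells. Grp, the gene of gastrin-releasing peptide, was in 50 cells at 152 against 0.0353 CPM. Genes with the smallest ratios among those at 100 CPM or more in the other cells included Chil3, Dlk1, Slpi and Scgb1a1. Chil3, a chitinase-like gene of alveolar macrophages, had 1 UMI in the endothelial-marker cells (0.506 against 133 CPM). The level in the other cells came mostly from the myeloid-marker cells, at 17366 CPM, and was 0.939 CPM when these and the fibroblast-marker cells were set aside. The delta-like gene Dlk1 was 45-fold lower (95% interval, 27.7 to 78.7), with 93.8% of its 16 UMIs in 1 cell and 0.722 CPM left without the mixed droplets. Slpi, which encodes an antiprotease, was 17.5-fold lower, and at 5.78 CPM without the mixed droplets. Scgb1a1, the secretory gene of club cells, was at 47.6 against 661 CPM, and at 28.2 CPM without the mixed droplets.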

How the data were processed

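Per the file headers and the methods, reads were aligned to mm10 and counted with Cell Ranger 3.0.2, and the authors deposited these as raw, whole-number UMI counts. The matrix held 31055 features and 16017 cells, with GFP and TdTomato added. The cell barcodes were not analysed here, so barcodes that libraries share could not be counted. Cells were selected as described above, and both the rule and the gene lists were chosen with earlier results of these data known. Counts were summed over each set of cells and given as CPM, with exact Poisson intervals for levels, exact conditional intervals for ratios and Clopper-Pearson intervals for shares (95%), all of which cover counting error only. A count of 0 was set to a floor of 3 UMIs in a ratio. Genes at 10 CPM or more in either set were taken as tested, and a gene was called at a ratio of at least 2 or at most 0.5. No doublet caller was run and any doublets were kept, with mixed droplets left out as an alternative. Cells were thinned by drawing 3000 UMIs without replacement. The genes named were those of a list with the most UMIs or on which a statement turned, up to about 8 a list, the 10 unlisted genes with the largest ratios at 50 CPM or more and 20% of thinned cells, and the 5 unlisted genes with the smallest ratios at 100 CPM or more in the other cells. Some genes that this rule named are not reported here. Gene positions are those of GENCODE M21 on GRCm38, for which 99.9% of feature identifiers matched, and promoters are from RefSeq. The ratio step was tested on simulated data with known changes. Python 3.11.15, numpy 2.4.6, scipy 1.17.1 and pandas 2.3.3 were used. Alternatives changed the number of rule genes, the quality limits, the comparison cells, the weighting, the scaling, the depth and the filter on low genes.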

Additional observations from a re-analysis of the deposited data

How the results depend on the processing

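No paired analysis was possible because no file analysed here gives the mouse of a cell and no test was run. The number of endothelial-marker cells stayed within 1.5 times of 131 in each alternative that redefined it, and the 22 further pan-endothelial genes were all at least 2-fold higher in each alternative but a filter at 50 CPM, which left 20. Thinning each cell to 3000 UMIs moved the cells with general capillary markers to 64 and those with aerocyte markers to 10. The filter on low genes set the counts of genes at least 2-fold higher and lower: 3610 and 1846 at 1 CPM or more, 1026 and 504 at 50 CPM or more, and 10871 and 1846 with no filter.

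Single genes changed direction in some alternatives, and ratios of many further listed genes changed in size without changing direction. The haemostasis gene counted above as lower without the mixed droplets is not among those given here. Without mixed droplets the log2 ratio was -0.48 for Ccnb1, -0.15 for Ube2c, -4.79 for Col1a1, -4.91 for Col1a2, -5.13 for Dcn, -1.74 for Pdgfra, -2.54 for Pdgfrb and -3.27 for Acta2, those of Col1a1, Dcn, Pdgfra and Acta2 being upper bounds since no UMI was left, and those of fibroblast genes being lowered by the definition of the mixed droplets. With cells weighted equally it was -0.58 for Col1a1, -0.41 for Col1a2, -0.41 for Dcn, -0.98 for Pdgfra, -0.58 for Pdgfrb and -1.21 for Acta2. Without the cell with the most UMIs of the gene it was -0.99 for Ccnb1, -0.61 for Ube2c, -0.26 for Col1a1, -0.23 for Col1a2 and -0.78 for Acta2. After thinning it was -0.28 for Col1a1, -0.61 for Col1a2, -0.49 for Pdgfra and -1.46 for Acta2. Against other cells without fibroblast-marker and myeloid-marker cells it was 2.17 for Tyrobp and 1.47 for Fcer1g, each with 2 UMIs in the endothelial-marker cells. A gene with 0 UMIs could have been present at up to 1.52 CPM.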

Other observations

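Antigen presentation genes separated by class. Of 7 tested MHC class I pathway genes 5 were at least 2-fold higher in the endothelial-marker cells, among them the light chain gene B2m (1116 against 263 CPM) and the immunoproteasome gene Psmb9 (87 against 17.5 CPM), while the heavy chain genes H2-K1 and H2-D1 stood at 1.62- and 1.88-fold. Without the mixed droplets 6 were higher, with H2-K1 at 1.76- and H2-D1 at 2.1-fold. In myeloid-marker cells the class I list summed to 6113 CPM, above the 4420 CPM of the endothelial-marker cells. Of 5 MHC class II pathway genes 4 were at least 2-fold lower and 0 higher. Cd74, the invariant chain gene, was at 1026 against 4985 CPM, and at 529 CPM without the mixed droplets, and H2-Aa was at 177 against 820.3 CPM, and at 113 CPM without them. After thinning Cd74 was detected in 41.8% of the endothelial-marker cells and 95.4% of the others. Of 9 interferon-responsive genes 9 were at least 2-fold higher, from Ly6e (1396 against 450.1 CPM) to Ly6a (1966 against 61.3 CPM), the gene of the Sca-1 antigen that also marks endothelium. Isg15 and Bst2, which encode antiviral proteins, were at 63.2 against 8.08 CPM and 160.4 against 34.5 CPM.

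Immediate early and stress genes, which respond within minutes to stimulation of a cell, summed to 28401 CPM in the endothelial-marker cells and 14376 CPM in the other cells. Of 13 listed 6 were at least 2-fold higher and 8 without the mixed droplets, with a median log2 ratio of 0.99. Ier3 differed most among them, at 1845 against 196 CPM. The heat shock gene Hspa1a was at 2333 against 664 CPM and Junb at 3322 against 1215 CPM, whereas Fos (4268 against 2714 CPM), Fosb (1723 against 1339 CPM) and Jund (2458 against 1928 CPM) were within 2-fold. In fibroblast-marker and myeloid-marker cells the list summed to 20132 and 8744 CPM. Genes of alveolar type I cells, the thin gas-exchange epithelium, were lower in 4 of 7 tested cases and in 6 of 7 without the mixed droplets. The exception was Clic5, a chloride channel family gene, at 249 against 140.2 CPM and at 225 CPM without the mixed droplets, detected in 94 of the 131 cells.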
